A study of Caenorhabditis elegans with 2 samples.

Results

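The genes described here are 10 listed under the Wnt β-catenin asymmetry pathway of Caenorhabditis elegans: pop-1, sys-1, wrm-1, lit-1, apr-1, pry-1, bar-1, mig-5, dsh-2 and gsk-3. The list includes bar-1, although it encodes the β-catenin of the canonical branch. The 10 genes were listed by name and not by a cut on a measured value, but with earlier results of these data known. All 10 were found in the annotation, out of 19973 nuclear protein-coding genes. The measurement was chromatin immunoprecipitation with sequencing (ChIP-seq) of RNT-1, the RUNX transcription factor of the worm, in whole late embryos of hermaphrodites, 5 h after bleaching of the mothers to synchronise their eggs. There was 1 group of 2 biological replicates, and no second condition. Both replicates came from strain OP462, which carries unc-119(tm4063) III and the transgene wgIs462, and express RNT-1 with GFP and FLAG at its C terminus. The sample notes name an antibody against GFP, while the antibody field of the labels says rnt-1, and the notes were followed here. On that reading the values are those of the tagged protein. They come from a mixture of all tissues of the embryo, in the unc-119(tm4063) background with the transgene, which both replicates share. A control from untagged animals was not used here.

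In most Wnt pathways, a Wnt signal received by Frizzled receptors and Dishevelled stops a complex of Axin, APC and GSK-3 kinase from degrading β-catenin, which then joins a TCF factor on DNA. The asymmetry pathway of the worm distributes this machinery unequally between the daughters of a dividing cell, so that the β-catenin SYS-1 is high and the TCF protein POP-1 low in the nucleus of the signalled daughter. Seam cells, which divide repeatedly in the epidermis as stem cells do, depend on it, and RNT-1 with its partner BRO-1 has been reported to hold down pop-1 there. Whole embryos do not show in which cells RNT-1 was bound.

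The sequences at the summits are shown first because they differ in composition and in the words they hold. Each is 101 bases of ce11 (RefSeq assembly WBcel235) centred on the summit, in the direction of the gene. They cover the peaks on chromosomes II, III and X that belong to the peak list filtered by IDR (irreproducible discovery rate, a measure of reproducibility across replicates), followed by the highest region at wrm-1, which is below that list and was added after its value was seen. Capitals mark the TCF core (CTTTGA or CTTTGT) and the repeat word GAGAGA, on either strand. The RUNX core (TGTGGT or TGCGGT, either strand), the sequence that RUNX domains recognise, would be in capitals too, and occurred in none of the 5.
lit-1, chrIII:13713086-13713186, plus strand: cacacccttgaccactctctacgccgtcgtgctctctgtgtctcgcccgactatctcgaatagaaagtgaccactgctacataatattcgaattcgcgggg
lit-1, chrIII:13721302-13721402, plus strand: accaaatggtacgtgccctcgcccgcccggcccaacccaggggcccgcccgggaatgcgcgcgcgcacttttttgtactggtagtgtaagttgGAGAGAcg
bar-1, chrX:7170222-7170322, minus strand: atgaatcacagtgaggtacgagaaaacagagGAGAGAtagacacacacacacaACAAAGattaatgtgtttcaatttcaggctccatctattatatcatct
mig-5, chrII:8185155-8185255, minus strand: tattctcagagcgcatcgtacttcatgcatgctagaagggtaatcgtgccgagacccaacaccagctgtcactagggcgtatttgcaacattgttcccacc
wrm-1, chrIII:5721929-5722029, plus strand: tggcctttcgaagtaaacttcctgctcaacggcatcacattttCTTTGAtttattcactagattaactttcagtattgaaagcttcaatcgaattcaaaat

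The deposited lists set the scale of what follows. Each region carries a signal value, a score of the authors with no stated scale, and a summit. There were 18427 regions for replicate 1, 21390 for replicate 2 and 19793 in the pooled list, called on both together, and these 3 lists include background regions. The IDR list held 1931 peaks, 1923 of them nuclear, with signals from 95.8 upwards. Read depth is unknown from these files. Signals were compared within a list only, and ranks are also given as a percent of their list, since the lists differ in length. With 1 group there was no contrast to test, and counts were set beside the share of all protein-coding genes or all nuclear peaks that met the same rule.

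Of the 10 genes, 7 had an IDR summit between 5 kb upstream and the gene end, a span called the locus below, against 14.9% of all protein-coding genes. They were pop-1, sys-1, lit-1, pry-1, bar-1, mig-5 and gsk-3. No IDR summit lay in the loci of wrm-1, apr-1 and dsh-2. With the stronger 965 peaks of the list alone, 3 of the 10 had one, sys-1, mig-5 and gsk-3, against 8.29% of genes, and in the gene body alone 2 did, lit-1 and bar-1, against 2.43%. The 10 loci measured 7.70 to 27.4 kb, with a median of 10.1 kb against 7.03 kb for all protein-coding genes, and longer loci hold more peaks. Among the 7160 genes with a locus in that range of lengths, 20.8% had an IDR summit. The loci of the pathway summed to 118 kb and held 9 IDR peaks, 76.2 per Mb, against 19.6 per Mb over the combined loci of all protein-coding genes.

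Fewer genes met the rule when the peak had to lie close to the gene. Of the 10 genes, 5 had a peak whose nearest protein-coding start was their own, against 7.50% of all protein-coding genes. They were pop-1, lit-1, pry-1, bar-1 and mig-5, among the 7 with a summit in the locus. Over all protein-coding genes, 1497 of the 2980 with a summit in the locus met this rule. A start window of 1000 bp upstream to 200 bp downstream of an annotated start held a summit at lit-1 and mig-5 alone, 2 of 10 against 6.75% of genes. That count depended on the window, with 5 of 10 against 9.15% at 2000 bp upstream to 500 bp downstream, and 1 of 10 against 5.10% at 500 bp upstream to 100 bp downstream. With the outermost start alone it was also 1, mig-5, against 6.12%. By place, 4 of the 9 summits lay between protein-coding genes, 3 in introns of lit-1 and bar-1, and 2 in an exon of Y18D10A.4, a neighbour of gsk-3.

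**Figure D1:**
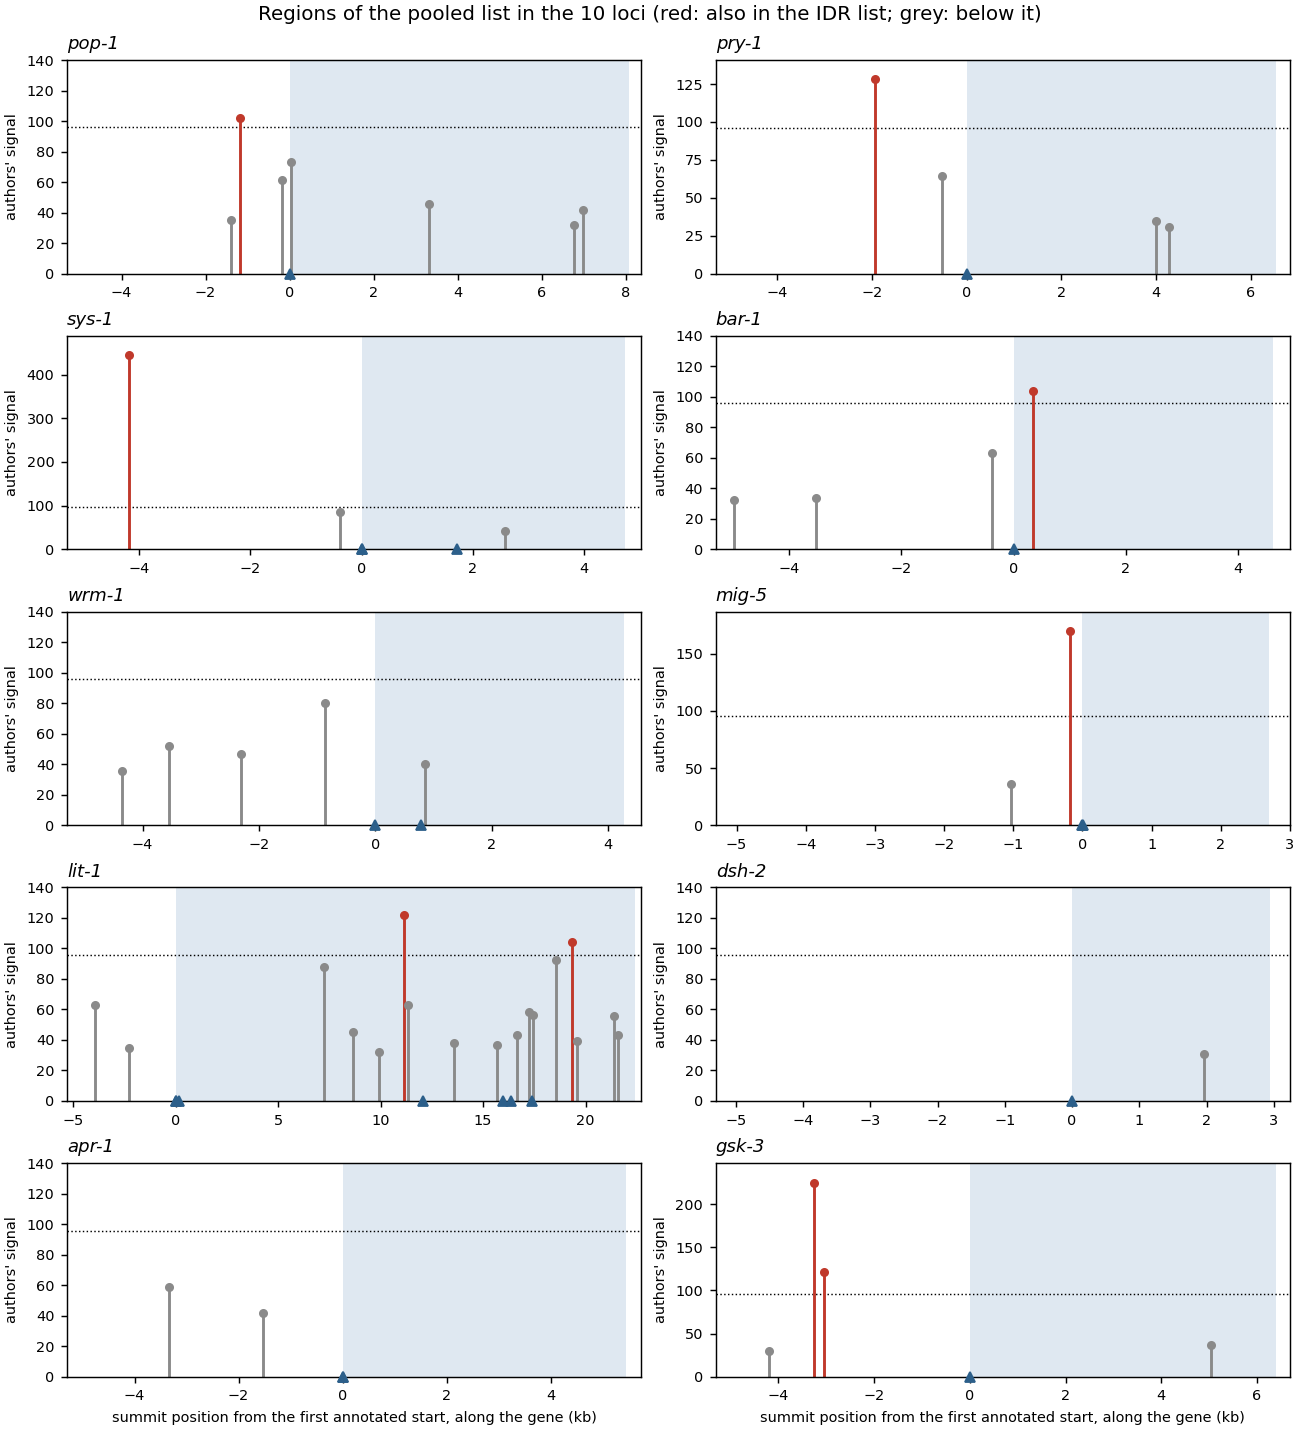
Signal of every pooled region (vertical axis, authors' score) against the position of its summit from the first annotated start along the gene (horizontal axis, kb), in the locus of each gene. Red regions are in the IDR list and grey ones below it, shading marks the gene, triangles the annotated starts and the dotted line the lowest IDR signal of 95.8. The vertical scales differ, and red lines are absent at wrm-1, apr-1 and dsh-2.

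The nuclear effectors had peaks upstream of their genes. pop-1 encodes the only TCF/LEF factor of the worm and lies on chromosome I from 2822243 to 2830311 on the minus strand. Its IDR peak, from 2831286 to 2831721, had its summit 1193 bp upstream of the start, with a pooled signal of 102 and rank 1707. In replicate 1 the same region had a signal of 70.8 and rank 1396, and in replicate 2 a signal of 33.7 and rank 2502. It was the weakest of the 9 peaks by pooled signal, and the only one outside the top 1931 regions of a replicate. In replicate 1 it stood ahead of the bar-1 peak, at rank 1851, and the second lit-1 peak, at rank 1889. The pop-1 summit lay inside W10C8.8 and W10C8.12, non-coding RNA genes annotated on opposite strands. Immediately at the start of pop-1 were 2 weaker regions, with signals of 73.4 at 30 bp downstream and 61.6 at 173 bp upstream, both below the IDR list. Each was overlapped by a region in both replicates, and in replicate 1 it was the same region, at rank 4181. In the pooled list, 7 regions fell in the pop-1 locus and 6 of them were overlapped in both replicates. These 6 were pairs of regions that overlap each other and share replicate regions, so they are not 6 separate sites.

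sys-1 encodes the β-catenin that acts as the coactivator of POP-1, and lies on chromosome I from 9980063 to 9984794 on the minus strand. Its locus held the highest signal of all 10 genes, 444 at rank 22 of the IDR list, with 258 at rank 29 in replicate 1 and 186 at rank 15 in replicate 2. The summit was 4176 bp upstream of sys-1, however, and only 162 bp upstream of his-68 and 207 bp upstream of his-67, histone genes that diverge from it. The start window of alg-5, an Argonaute gene, also held it. Histone genes have near-identical copies, but every word of 36 bases in this peak occurred once in the genome, and the same was true of the other 8 peaks. Closer to sys-1 was a region with a signal of 85.2, 382 bp upstream of the start. Its rank of 2399 placed it below the IDR list, with rank 3271 in replicate 1 and 2009 in replicate 2. A further IDR peak, with a signal of 124, overlapped the last 20 bp of the gene, and its summit was 198 bp beyond the gene end and 203 bp from the start of eif-3.C, a translation initiation factor gene.

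wrm-1 and lit-1 act together in removing POP-1 from the nucleus of the signalled daughter. wrm-1, a β-catenin gene on chromosome III from 5722850 to 5727115, had no IDR peak. Its highest region lay 871 bp upstream of the first start, with a pooled signal of 79.9 at rank 2653, a signal of 53.0 at rank 2422 in replicate 1 and one of 29.2 at rank 3230 in replicate 2. It was the region shown last among the sequences, and both replicates had it below their top 1931. The other 4 pooled regions at wrm-1 had signals of 35.3 to 52.1.

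lit-1, which encodes a Nemo-like kinase that binds WRM-1, is the longest of the genes, on chromosome III from 13701991 to 13724404, with 7 annotated starts. It carried 2 IDR peaks, both in introns and 8216 bp apart. The first, with a signal of 122 at rank 1224, had 87.5 at rank 877 in replicate 1 and 49.7 at rank 1234 in replicate 2. It lay 11145 bp downstream of the first start and 909 bp upstream of the start of transcript W06F12.1a.1, so it counted in a start window through an internal start alone. The second, with a signal of 104 at rank 1657, had 60.1 at rank 1889 in replicate 1 and 44.5 at rank 1527 in replicate 2. It lay 1956 bp downstream of the last start, that of W06F12.1c.1, and 242 bp past the start of W06F12.7, a non-coding gene on the opposite strand that ends before reaching the summit. Both replicates ranked both peaks in their top 1931. No pooled region lay in the start window of the outermost start of lit-1.

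The lit-1 locus was also crowded below the IDR list. It held 17 pooled regions, of which 6 lay in start windows and 12 were overlapped in both replicates. Some of the 12 overlap each other and share a replicate region, so they are not all separate sites. Of the regions outside the IDR list, the highest were in introns, at 92.1 with rank 2072 and at 87.8 with rank 2265. The former had rank 1813 in replicate 1 and 2355 in replicate 2, the latter 1863 and 3389. The locus is 27.4 kb long, and its 0.620 pooled regions per kb were the most of the 10 loci. wrm-1 and pop-1 were close, at 0.540 and 0.536 per kb, and dsh-2 was lowest, at 0.126 per kb. Over the 10 loci together there were 415 pooled regions per Mb, against 197 per Mb of nuclear sequence.

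Among the genes of the β-catenin degradation complex, peaks were found at pry-1 and upstream of gsk-3, and none was in the IDR list at apr-1. pry-1, an Axin gene on chromosome I from 14172828 to 14179360 on the minus strand, had a summit 1930 bp upstream of its start with no other start within 1000 bp. The signal was 128 at rank 1108, with 75.7 at rank 1221 in replicate 1 and 54.2 at rank 1033 in replicate 2. All 3 lists placed this summit at the same base. A second region 515 bp upstream of pry-1 had a pooled signal of 64.1. That region differed between the replicates, with rank 2215 in replicate 1 and 13829 in replicate 2.

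gsk-3, the kinase gene, lies on chromosome I from 12819216 to 12825602. Its 2 IDR peaks overlapped each other, with summits 205 bp apart and 3243 and 3038 bp upstream of the start. The stronger had a pooled signal of 225 at rank 266, with 125 at rank 361 in replicate 1 and 103 at rank 176 in replicate 2. The weaker had 121 at rank 1243, with 79.8 at rank 1108 in replicate 1 and 48.3 at rank 1304 in replicate 2. Both lay in an exon of Y18D10A.4, 69 and 274 bp downstream of its start, and no pooled region was in the start window of gsk-3.

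apr-1, the APC-related gene on chromosome I from 8050037 to 8055475, had 2 pooled regions, of 58.9 at 3346 bp upstream and 42.1 at 1525 bp upstream. The former was overlapped in replicate 1 alone, at rank 2520, and the latter in replicate 2 alone, at rank 4569. Neither was overlapped by regions of both replicates.

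bar-1 encodes the β-catenin of the canonical branch, which acts with POP-1 in the migration of neuroblasts and in the vulva. It lies on chromosome X from 7166005 to 7170625 on the minus strand. Its IDR peak lay in an intron, 353 bp downstream of the only annotated start, and so just outside the start window. The pooled signal was 104 at rank 1651, with 60.6 at rank 1851 in replicate 1 and 44.0 at rank 1563 in replicate 2. The summits of the replicates were 1 bp apart. A weaker region, of 63.0, lay 379 bp upstream of the start, with rank 4358 in replicate 1 and 5524 in replicate 2.

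The Dishevelled genes mig-5 and dsh-2, whose proteins relay the signal from Frizzled receptors, differed in these lists. mig-5, on chromosome II from 8182323 to 8185023 on the minus strand, had a summit 182 bp upstream of its start. The signal was 170 at rank 598, with 91.1 at rank 800 in replicate 1 and 75.5 at rank 462 in replicate 2. The summit lay between mig-5 and cct-1, a chaperonin gene that runs the other way and starts 238 bp from it, so position alone does not assign the peak to either gene. dsh-2, on chromosome II from 5078233 to 5081174, had 1 pooled region in its locus, in an exon, with a signal of 31.0 at rank 17803. It was overlapped in replicate 2 alone, at rank 13976, and replicate 1 had no region in the dsh-2 locus. No test of the difference between these genes was possible with the lists.

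**Figure D2:**
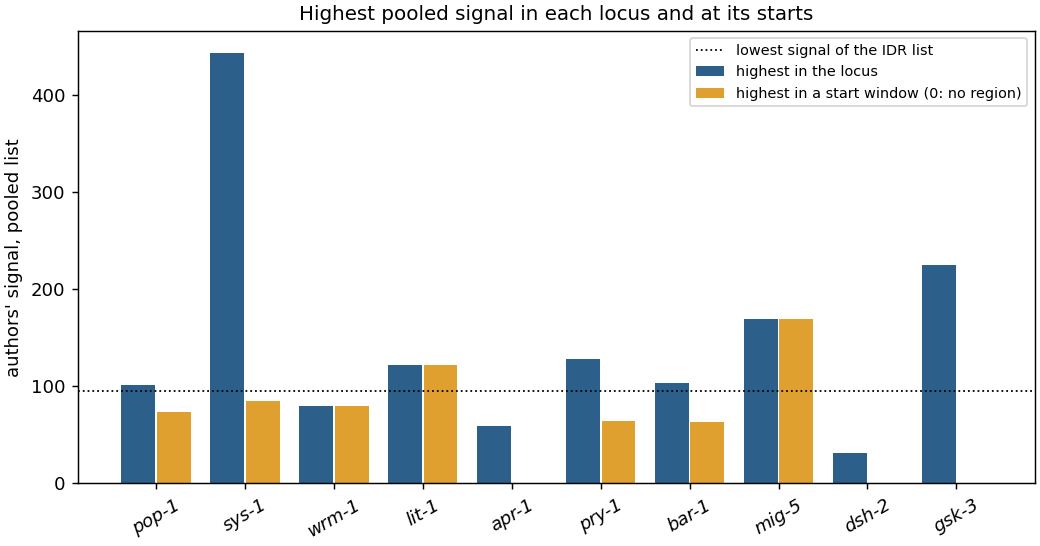
Highest pooled signal in each locus (blue bars) and in a start window of the gene (orange bars, 0 where no region was listed), on the authors' scale. The bars have equal height at wrm-1, lit-1 and mig-5, and at sys-1 the locus reached 444 while the start reached 85.2.

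Regions at the starts were more frequent in the pooled list, which keeps background. A pooled summit lay in a start window of 7 of the 10 genes, against 31.4% of all protein-coding genes, and in the locus of all 10, against 67.0%. In all, 49 pooled regions fell in the loci, and 32 of these, 65.3%, were overlapped by a region of both replicates, against 56.1% of all nuclear pooled regions. Pooled regions that overlap each other were counted separately in both shares. When genes were ordered by the highest pooled signal in the locus, sys-1 stood above 99.8% of protein-coding genes, gsk-3 above 97.6% and mig-5 above 94.6%. pop-1 stood above 86.4%, wrm-1 above 80.9%, apr-1 above 71.7% and dsh-2 above 36.3%. For sys-1 and gsk-3 these places rest on the peaks at neighbouring genes.

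The IDR list rests on agreement between replicates, but single peaks in it can differ between them. The 9 peaks held the same ranks by signal in the IDR list and in the pooled list. Ranks in the replicates are given as a description. Of the 9 IDR peaks, 8 were overlapped by a top 1931 region of both replicates, against 74.0% of nuclear IDR peaks, and the exception was pop-1. With the top 965 regions of each replicate the count was 4 of 9, against 39.2%, and neither count stands apart from that of all peaks. The order of the strongest was the same in both replicates, with sys-1 ahead of the stronger gsk-3 peak and mig-5. The summits of the replicates were a median of 16.0 bp apart, and the largest shift of a replicate summit from the pooled one was 99 bp, at the first lit-1 peak in replicate 1. As a group the peaks were not among the strongest of the list. Their median signal was 122 against 138 for all nuclear IDR peaks, and 6 of the 9 had ranks between 1108 and 1707.

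**Figure D3:**
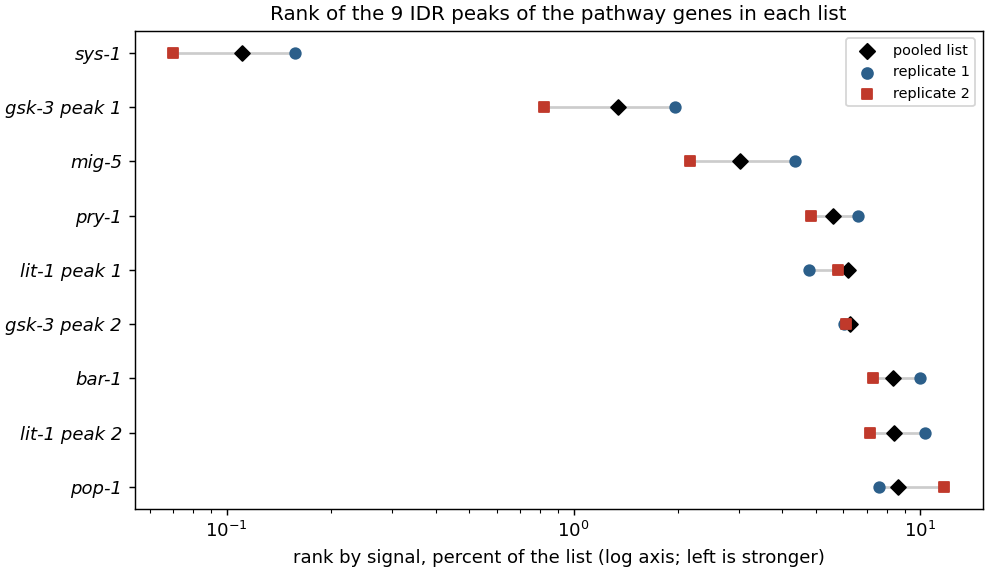
Rank by signal of the 9 IDR peaks as a percent of the list, on a log axis, in the pooled list (black diamonds), replicate 1 (blue circles) and replicate 2 (red squares). The sys-1 peak lies at 0.111% of the pooled list and the pop-1 peak at 8.62%, and pop-1 has the lowest place in replicate 2.

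The RUNX core occurred within 50 bp of 1 of the 9, the weaker gsk-3 peak, 30 bp from the summit, against 14.8% of nuclear IDR summits and 5.18% of all nuclear windows of 101 bases. With 9 peaks, that count cannot be set apart from the share of all peaks. The nearest copy lay 100 bp from the bar-1 summit, 235 bp from the stronger gsk-3 summit, 328 bp from that of pry-1 and 334 bp from the first of lit-1. At mig-5, the second lit-1 peak, sys-1 and pop-1 it was 637, 789, 840 and 1645 bp away. Across the 10 loci there were 67 copies, 0.567 per kb, against 0.559 per kb of nuclear sequence. The pop-1 locus held 10 copies.

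The TCF core, the sequence that POP-1 and its relatives recognise, was within 50 bp of 2 of the 9 summits, those of bar-1 and pry-1, against 7.33% of nuclear IDR summits and 13.1% of all nuclear windows of 101 bases. The copies were centred 6 bp from the bar-1 summit and 20 bp from that of pry-1. In the bar-1 sequence above it appears as ACAAAG, with CTTTGT on the other strand. The wrm-1 region below the IDR list, picked after its value was seen, also held one, CTTTGA, starting 7 bases before the summit. Words in the other regions below that list are not described here. GAGAGA was within 50 bp of 5 of the 9, against 29.7% of nuclear IDR summits and 5.18% of all windows. These matches describe letters only, and POP-1 binding was not measured.

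Base composition varied widely among the summits. The windows of 101 bases at pop-1 and at the second lit-1 peak had a G+C content of 64.4%, those at gsk-3 had 58.4% and 52.5%, and that at bar-1 had 36.6%. The interquartile range over all nuclear IDR summits was 44.6 to 54.5%, with a median of 49.5%. The summit at pop-1 was the only one of the 9 inside an annotated non-coding gene, against 17.0% of nuclear IDR summits.

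Other genes of the pathway were read in the same way, from lists of 35 genes in all that were chosen with earlier results of these data known. Of these, 16 had an IDR summit in the locus, 45.7% against the 14.9% of all protein-coding genes. A summit whose nearest start was their own was found for 11, against 7.50% of genes, and 7 had one in a start window, against 6.75%. These shares are not matched for locus length. None of the 5 Wnt ligand genes, lin-44, egl-20, cwn-1, cwn-2 and mom-2, had one in the locus. Of 7 receptor and planar polarity genes, 4 did. They were vang-1, a Van Gogh gene, with a signal of 272 at 338 bp upstream of the start; mom-5, a Frizzled gene, with 185 at a summit nearer to algn-10; cam-1, a Ror-type receptor gene, with 147 at 2194 bp upstream; and lin-17, the Frizzled gene of many asymmetric divisions, with 137 at 720 bp downstream. Of 4 genes for ligand secretion, 3 had one. The highest was mom-1, a Porcupine gene, with 332, but that summit was nearer to the start of cest-16 than to its own. The summit at snx-3 lay 346 bp upstream of it and 330 bp from the start of rad-54.L, and that at mig-14 was nearest to R06B9.5. A start window held a summit at mom-1, which had 2 IDR peaks, and at snx-3, although none of the 3 genes had the nearest start to a summit.

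Of 6 other cytoplasmic regulators, 3 had an IDR summit in the locus. hmp-2, the β-catenin gene of cell junctions, had 237, with the start of K05C4.7 nearer, and kin-19, a casein kinase I gene, had 139 at 1198 bp upstream. dsh-1, the remaining Dishevelled gene, had 109 at 489 bp downstream, and its replicates differed, with rank 4890 in replicate 1 and 1116 in replicate 2. Of 3 genes for nuclear partners, 2 had one in a start window. These were cbp-1, a histone acetyltransferase gene, with 297 at 908 bp upstream, and unc-37, the Groucho corepressor gene, with 140 at 284 bp upstream. Of 10 genes reported to act downstream of POP-1, SYS-1 or BAR-1, 4 had one, and in each the nearest start was their own. They were egl-18, a GATA factor gene of the seam, with 231 at 2039 bp upstream, tlp-1, a zinc finger gene of asymmetric fates, with 228 at 98 bp upstream, and the Hox genes mab-5 with 156 and lin-39 with 103.

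**Figure D4:**
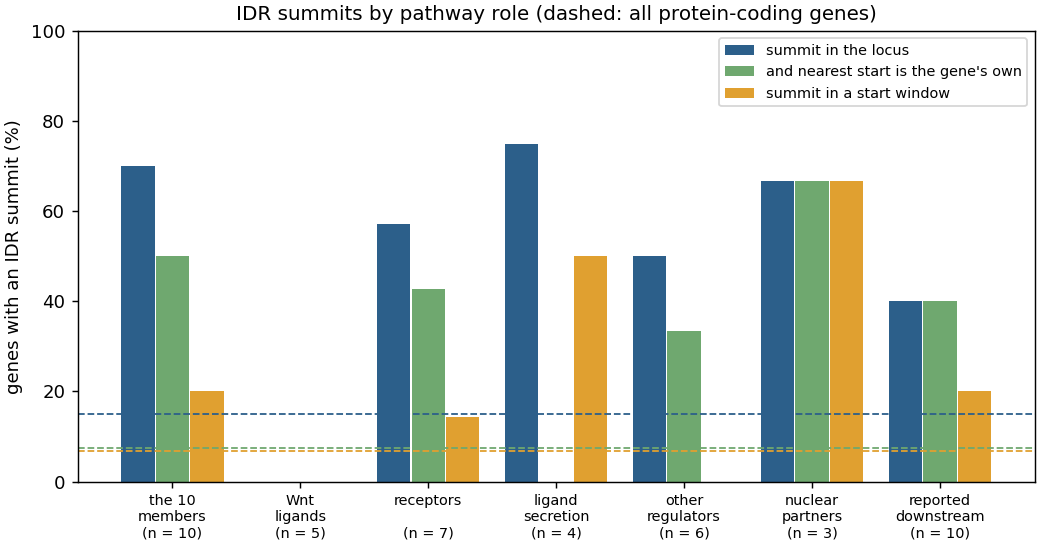
Percent of the genes of each role with an IDR summit in the locus (blue), with such a summit whose nearest protein-coding start is their own (green) and with one in a start window (orange). Dashed lines give 14.9%, 7.50% and 6.75%, the shares of all protein-coding genes. Ligand genes have no bar, and ligand secretion has no green bar.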

How the data were processed

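Region lists in narrowPeak format were deposited for each replicate, for both replicates pooled and after IDR filtering, made from alignments of the immunoprecipitated samples and a control, per the file notes that came with the samples. Which aligner, caller and IDR cutoff were used is not given in the sources used here. Signal is a score as deposited by the authors, and summits come from the offset in the last column. All positions are 1-based on ce11, matched to Ensembl release 115 (WBcel235), with 29314 starts of coding transcripts. The IDR list on ce10 gave only its length of 2450.

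A locus ran from 5 kb before a gene to its end. Replicate regions were matched by overlap of at least 1 bp, taking the nearest summit and, in ties, the longest overlap. Words were searched on both strands within 50 bp of the summit. No p-value was computed. Counting was tested on planted summits and words. The work used Python 3.11.15 and pandas 2.3.3.

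Members and lists were chosen with earlier results of these data known. Named are all members, the genes with starts at their summits, and up to 4 bound genes per list.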

Additional observations from a re-analysis of the deposited data

How the results depend on the processing

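The number of pathway genes with an IDR summit in the locus was 7 in the main count and ranged from 6 to 7 when each replicate alone supplied the top regions, which dropped pop-1 without replicate 1. It was 3 of 10 among the stronger part of the IDR list, against 8.29% of protein-coding genes, and 2 with the gene body alone, against 2.43%. The number of peaks was 3 in both of these settings and 8 to 11 with a single replicate. Among the other pathway genes, 7 had a summit in the gene body alone, and 14 to 18 had one in the locus with a single replicate. Of all protein-coding genes, 14.7% had one in the locus without replicate 1 and 14.9% without replicate 2. Genes with a summit in a start window numbered 1 in the stronger part of the list (3.70% of all genes), 1 when windows ran from 500 bp upstream to 100 bp downstream (5.10%), 1 with the outermost start alone (6.12%), 5 when they ran from 2000 to 500 bp (9.15%) and 2 with either replicate alone (6.62 and 6.63%). With the top 965 regions of each replicate, 4 of 9 peaks were strong in both, against 39.2%. The RUNX core was within 25 bp of 0 of 9 summits, against 8.94%. The highest signal, that at sys-1, stood at 0.0701 to 0.157% of a single replicate list against 0.111% in the pooled list. Pathway genes, their peaks and other pathway genes numbered 5, 6 and 14 with a reach of 2 kb, against 10.2% of all protein-coding genes. They numbered 5, 6 and 11 where the nearest start had to be their own, against 7.50% of genes. With as many pooled regions as the ce10 list they numbered 7, 12 and 20, against 18% of genes. That length also gave 3 pathway genes with a summit in a start window, against 8.18% of genes. No paired analysis was possible because there is 1 group. Depth is unknown, so an absent region is not absence of binding.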
